A study of Mus musculus with 69 samples.

Results

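Interferon-stimulated genes are genes whose transcription rises when a cell senses interferon, and their messenger RNA was measured in whole kidneys of NZB/W F1 mice, a hybrid strain in which females develop a lupus-like disease with nephritis. A list of 43 such genes was taken, and each gene had to be listed in the count tables with at least 100 reads in total over the 65 original libraries. All 43 met that minimum, of 24523 symbols with counts, 17587 of which reached it. Their total counts ran from 3319 for Oas3 to 554612 for Ly6e. Kidneys of female mice were perfused and RNA was sequenced from 30 young mice aged 12 weeks, from 27 mice aged 30 to 45 weeks with established proteinuria (nephritic), and from 8 mice in remission. The remission mice had been treated at an age of 36 to 50 weeks with 1 dose of cyclophosphamide and 6 doses of CTLA4Ig and anti-CD40L over 2 weeks, and were killed 8 weeks later with their proteinuria resolved. Mice were collected by zeitgeber time (ZT, hours after lights on), with 7, 4, 4, 7, 4 and 4 young and 7, 4, 4, 6, 3 and 3 nephritic mice at ZT0, 4, 8, 12, 16 and 20. The remission mice came from ZT0 and ZT12, with 4 mice at each. All groups shared the strain, and each library was made from 1 mouse. The p-values thus measure the spread between mice, except in fits that hold both libraries of a mouse sequenced again. Young and nephritic mice differed in age as well as in disease. Remission mice also differed in drug treatment and, as inferred rather than labelled, in sequencing run. None of these can be told apart from the diagnosis.

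Type I interferons bind a receptor whose Janus kinases switch on a complex that holds Stat2 and Irf9 and binds the interferon-stimulated response element in the promoters of these genes. Interferon gamma acts mainly at gamma-activated sites, and Irf1 and Irf8 are among its usual targets. The products include antiviral enzymes, sensors of foreign nucleic acid, GTPases and inhibitors of the pathway itself, and a raised level of them in blood and kidney is a known feature of human and mouse lupus.

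Total counts were 25257530 to 35744843 in young, 26596500 to 48075977 in nephritic and 13311278 to 21849912 in remission mice, so the lowest genes were measured least precisely in remission. Levels are given as counts per 1000000 (CPM) with TMM library sizes, and differences as log2 changes with their standard error (SE) from edgeR's quasi-likelihood F test, called at a Benjamini-Hochberg adjusted p of at most 0.05 over all genes tested. The remission mouse s9, labelled ZT12, had 27 CPM of the clock gene Arntl, where the other 3 ZT12 remission mice had 3.20 to 4.89 CPM and the 4 ZT0 mice 23.2 to 28.7 CPM. The library thus went against its time label, and results that rest on it are given with and without it. Of 4 repeat libraries listed among those of the remission mice, that labelled as a repeat of the nephritic mouse RX11RU lay nearer to another nephritic mouse, RX11LU, than to its namesake.

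Nephritic kidney held more RNA of nearly the whole list. Time point and sequencing set, which was inferred from the titles, were held fixed. Of the 43 genes 42 had a higher level in nephritic mice and 0 a lower one, where 28.1% of all 17521 genes tested were higher and 33.9% were lower. The median log2 change of the 43 genes was 1.22, from 0.13 for Rsad2 to 3.10 for Oas3, while the median over all genes was -0.03. For 10 of the 43 genes each of the 27 nephritic mice lay above each of the 30 young mice, which held for 0.896% of all genes. These 10 were Ifit1, Mx1, Mx2, Oas1a, Oas2, Oas3, Oasl1, Irf7, Irf9 and Zbp1. In whole tissue, more cells that use a gene and more RNA per cell cannot be told apart.

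The active enzymes of the OAS family make the short oligoadenylates that switch on RNase L when double-stranded RNA is present. This family held the gene with the largest difference. Oas3 had 0.0669 CPM at the lowest, 0.303 at the median and 0.724 at the highest in young mice, against 0.930, 2.51 and 8.89 CPM in nephritic mice. The lowest nephritic mouse was therefore above the highest young mouse. Its log2 change was 3.10 (SE 0.19, adjusted p = 1.5e-19), an 8.55-fold difference. The smallest change of the family was that of Oasl2, with 5.21, 6.81 and 10.2 CPM in young and 9.50, 20.3 and 44.5 CPM in nephritic mice. There, 26 of 27 nephritic mice exceeded the highest young mouse, and the log2 change was 1.56 (SE 0.12, adjusted p = 8.1e-17). Oas2, Oas1g, Oas1a and Oasl1 lay between, with log2 changes of 2.44, 2.25, 2.10 and 1.93. Oas1a and Oas1g are close copies of each other, and reads had to align uniquely to be counted, so the division of reads between them is uncertain. On GRCm38 the family sits on chromosome 5 in 2 stretches, with Oas2 at chr5:120730333-120749853 and Oas3 at chr5:120753098-120777661 next to each other on the minus strand.

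Isg15 is a ubiquitin-like protein that is attached to other proteins, and Usp18 removes it and also dampens the type I receptor. Isg15 (chr4:156199424-156200818) had 1.80, 2.89 and 4.46 CPM (lowest, median and highest) in young and 3.78, 9.16 and 25.6 CPM in nephritic mice. The groups overlapped by 1 nephritic mouse, and the log2 change was 1.78 (SE 0.13, adjusted p = 1.6e-17), or 3.43-fold. Usp18 went from 2.83, 4.52 and 6.06 CPM to 5.74, 8.23 and 14.8 CPM, again with 26 of 27 nephritic mice above the young range. Its log2 change was 1.05 (SE 0.08, adjusted p = 1.2e-15).

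**Figure D1:**
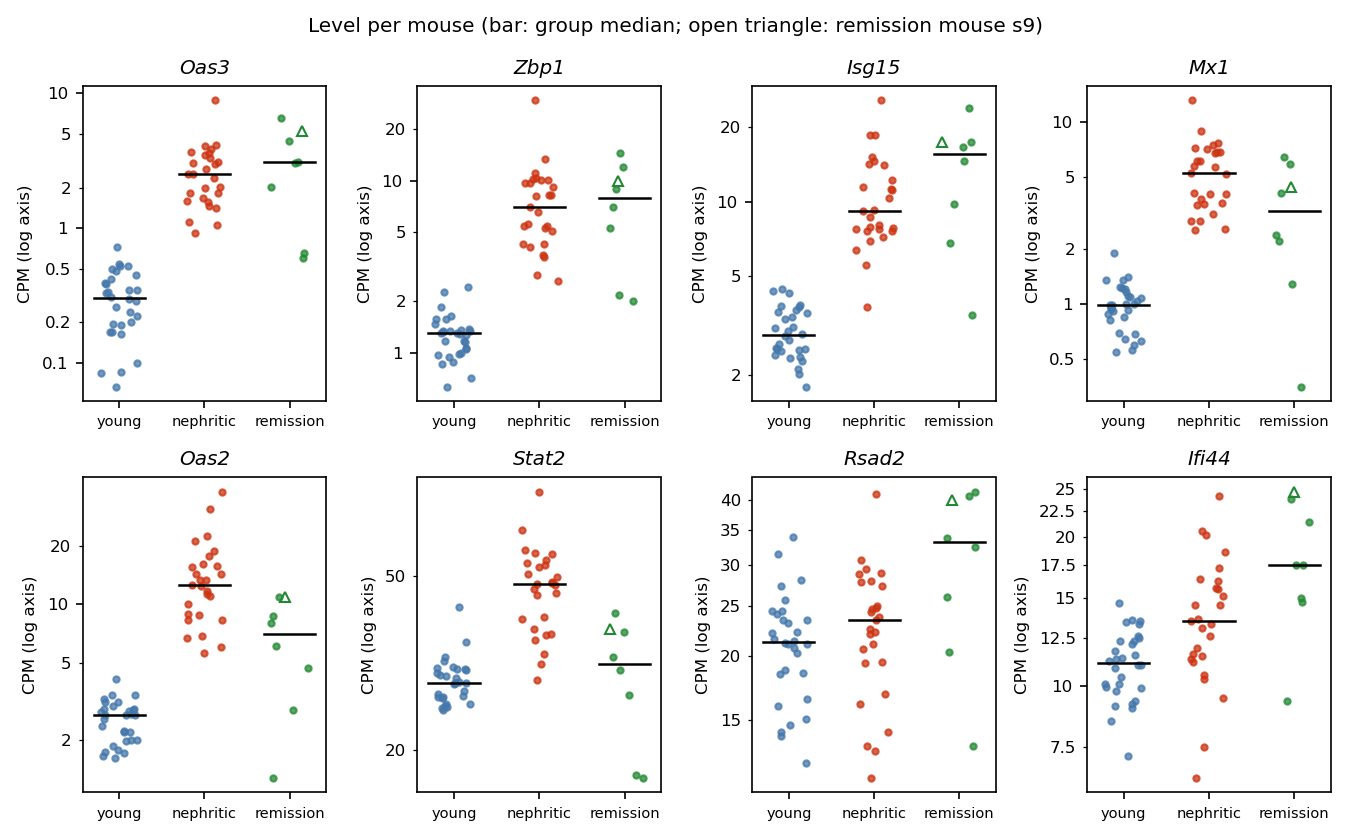
Each point is 1 mouse, with its CPM on a log axis, for 8 genes in 30 young, 27 nephritic and 8 remission mice. Bars are group medians and the open triangle is remission mouse s9. Oas3, Zbp1 and Mx1 separate young from nephritic mice with no overlap, while the Rsad2 medians of young and nephritic mice are 21.3 and 23.5 CPM.

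The Ifit proteins bind viral RNA, and the Mx proteins are dynamin-like GTPases that block viruses. Ifit1 (chr19:34640871-34650009) rose from 3.03, 4.57 and 6.02 CPM in young to 8.00, 12.5 and 28.1 CPM in nephritic mice, with no overlap and a log2 change of 1.63 (SE 0.11, adjusted p = 4.0e-19). Ifit2, in the same cluster on chromosome 19, had 12.0, 22.4 and 26.3 CPM against 20.1, 29.3 and 40.3 CPM. For Ifit2, 19 of 27 nephritic mice were above the young range, and the log2 change was 0.53 (SE 0.08, adjusted p = 3.5e-08). Ifit3, whose reads may be divided with the near copy Ifit3b, changed by 0.98. Mx1 had 0.547, 0.992 and 1.92 CPM in young and 2.56, 5.27 and 13.1 CPM in nephritic mice, a log2 change of 2.43 (SE 0.14, adjusted p = 1.8e-20). Mx2 had 1.25, 1.95 and 3.09 against 3.24, 4.91 and 10.3 CPM, a log2 change of 1.35 (SE 0.10, adjusted p = 1.3e-17). Neither Mx gene overlapped between the groups. They lie near each other on chromosome 16, where the annotation lists Mx2 as a polymorphic pseudogene of the reference strain.

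Among the transcription factors, Irf7, which amplifies the interferon response, changed most. It had 9.81, 15.9 and 25.3 CPM in young and 30.2, 52.1 and 125 CPM in nephritic mice, with no overlap. The log2 change was 1.88 (SE 0.12, adjusted p = 7.1e-20). Stat2, the partner of Irf9, changed least, from 24.6, 28.5 and 42.4 CPM to 29, 47.9 and 77.7 CPM. For Stat2, 18 of 27 nephritic mice were above the highest young mouse, and the log2 change was 0.71 (SE 0.07, adjusted p = 3.2e-13). Irf1, Irf9 and Irf8 rose by 1.26, 1.09 and 0.90 on the log2 scale.

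Nucleic acid sensors and editors rose by unequal amounts. Zbp1, which binds left-handed double helices and can start necroptosis, had 0.635, 1.29 and 2.42 CPM in young and 2.62, 7.04 and 29.3 CPM in nephritic mice. The groups did not overlap, and the log2 change was 2.55 (SE 0.16, adjusted p = 9.0e-20). At the other end was Ifih1, the long-RNA sensor MDA5, with 13.6, 16.8 and 23.4 CPM against 15.3, 22.2 and 29.8 CPM. Only 13 of 27 nephritic mice exceeded the highest young mouse for Ifih1, and its log2 change was 0.43 (SE 0.06, adjusted p = 3.8e-09). Dhx58 (LGP2), Ddx58 (RIG-I), the RNA editor Adar and the RNA-activated kinase Eif2ak2 had log2 changes of 1.31, 0.59, 0.49 and 0.45, and each passed the test.

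Nucleotide and RNA enzymes included the gene that did not pass. Isg20, an exonuclease of RNA, had 0.881, 1.57 and 2.66 CPM in young and 1.49, 4.22 and 17.7 CPM in nephritic mice, with 20 of 27 nephritic mice above the young range and a log2 change of 1.44 (SE 0.15, adjusted p = 4.8e-12). Rsad2, or viperin, which makes a chain-terminating nucleotide, had 12.4, 21.3 and 34.0 CPM against 11.6, 23.5 and 41.2 CPM. The ranges of Rsad2 overlapped almost completely, with 1 of 27 nephritic mice above the highest young mouse. Its log2 change was 0.13 (SE 0.09, adjusted p = 0.21), and without the 11 mice of sequencing set 1 it was 0.24 (adjusted p = 0.025), past the threshold. Cmpk2, the nucleotide kinase beside Rsad2 on chromosome 12, had the next smallest change of the list, 0.21 (SE 0.06, adjusted p = 0.0039). Samhd1, which breaks down deoxynucleotides, rose by 0.77.

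GBP and IRG GTPases act on the membranes around intracellular parasites and are typical targets of interferon gamma. Gbp2 had 3.30, 6.07 and 11.5 CPM in young and 6.50, 15.7 and 42.3 CPM in nephritic mice, a log2 change of 1.44 (SE 0.14, adjusted p = 5.5e-13). Gbp3 had 19.5, 35.5 and 66.9 against 24.6, 47.6 and 94.7 CPM, a change of 0.43 (SE 0.11, adjusted p = 5.8e-04), and 4 of 27 nephritic mice lay above the young range. Iigp1, Igtp and Irgm1 rose by 1.19, 1.02 and 0.93. Several of these genes belong to clusters of similar copies, so their unique reads may understate or mix them.

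Of the remaining effectors, Rtp4 had the largest change, from 2.79, 5.22 and 7.36 CPM in young to 4.61, 13.4 and 31.1 CPM in nephritic mice (log2 change 1.53, SE 0.12, adjusted p = 7.8e-16). Ifi44 had the smallest, with 7.19, 11.1 and 14.7 against 6.50, 13.5 and 24.1 CPM (log2 change 0.32, SE 0.09, adjusted p = 0.0018), and its lowest mouse was nephritic. Between them lay Parp14, Ly6e, the virus tether Bst2, Xaf1, Trim30a, Ifi27 and Ifi35, with log2 changes of 1.34, 1.30, 1.26, 1.22, 1.11, 0.89 and 0.67. Socs1, which inhibits the Janus kinases and so closes the feedback loop, had 0.440, 0.869 and 1.81 CPM in young and 0.863, 2.73 and 10.7 CPM in nephritic mice. For Socs1, 21 of 27 nephritic mice were above the young range, and the log2 change was 1.54 (SE 0.17, adjusted p = 1.9e-11).

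The promoters of 4 genes are printed to show the letters that the pathway reads. They are the gene with the largest change (Oas3), the ubiquitin-like modifier (Isg15), the gene that did not pass (Rsad2) and the gene with the smallest p over time points (Irf8). Each run holds the 250 bases before the annotated start, 5′ to 3′ on the gene's strand, from RefSeq on GRCm38.p6. Capitals mark GAAANNGAA, the core of the interferon-stimulated response element, or TTCNNNGAA, a gamma-activated site, on either strand. They come from chr5:120777660-120777909 (minus strand), chr4:156200819-156201068 (minus strand), chr12:26456453-26456702 (minus strand) and, for the first of 2 annotated starts of Irf8, chr8:120736108-120736357 (plus strand).
Oas3: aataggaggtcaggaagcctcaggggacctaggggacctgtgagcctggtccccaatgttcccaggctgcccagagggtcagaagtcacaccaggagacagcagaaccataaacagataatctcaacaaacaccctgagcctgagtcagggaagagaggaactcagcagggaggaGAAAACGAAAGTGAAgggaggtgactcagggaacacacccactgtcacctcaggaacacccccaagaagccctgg
Isg15: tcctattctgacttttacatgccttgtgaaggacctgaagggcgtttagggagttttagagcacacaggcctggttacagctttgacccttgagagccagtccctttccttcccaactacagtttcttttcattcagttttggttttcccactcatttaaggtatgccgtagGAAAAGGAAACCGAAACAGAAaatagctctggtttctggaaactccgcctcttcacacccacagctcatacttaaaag
Rsad2: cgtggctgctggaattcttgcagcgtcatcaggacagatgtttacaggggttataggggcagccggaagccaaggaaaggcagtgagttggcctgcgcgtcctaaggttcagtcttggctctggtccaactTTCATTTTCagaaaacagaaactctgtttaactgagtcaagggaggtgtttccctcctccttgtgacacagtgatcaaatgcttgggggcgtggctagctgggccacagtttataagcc
Irf8: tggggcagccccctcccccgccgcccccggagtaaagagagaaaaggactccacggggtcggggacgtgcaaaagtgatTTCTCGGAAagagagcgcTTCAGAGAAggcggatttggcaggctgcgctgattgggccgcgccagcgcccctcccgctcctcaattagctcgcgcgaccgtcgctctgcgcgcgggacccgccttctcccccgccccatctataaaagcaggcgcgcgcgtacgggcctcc
The first response element core began at position -75 in Oas3, -78 in Isg15 and -119 in Rsad2, counting back from -1, the base before the start. In Rsad2 the letters were on the opposite strand. The Irf8 run held 2 matches of the gamma-activated site and 0 of the response element core.

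Windows of 300 bases around the start were available for 32 of the 43 genes. GAAANNGAA was found in 20 of those 32 genes (62.5%), where 9.76% of all 27025 genes with a window held it. TTCNNNGAA was found in 11 of the 32 (34.4%), against 9.55% of all genes. The motifs overlapped each other in 1 window. Rsad2, Ifi44 and Gbp3, which changed little, each held the response element core. The windows of Oasl1, Oasl2, Irf7, Irf9, Cmpk2 and Xaf1 held 0 matches of either motif, over the wide range of changes that these genes showed. A match is only a run of letters, and binding was not measured.

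The list was also summarised in each mouse. Taking each gene's log2 CPM minus its mean in young mice, the median over the 43 genes was -0.21 to 0.24 in the 30 young mice and 0.43 to 2.30 in the 27 nephritic mice, so no nephritic mouse fell within the young range. HIL5RU, a nephritic mouse of ZT12, stood at the top with 2.30 and was the highest nephritic mouse for 31 of the 43 genes. RX90, of ZT20, stood at the bottom with 0.43 and was the lowest for 11 genes. Between-mouse SDs of log2 CPM had a median of 0.27 over the 43 genes in young and 0.50 in nephritic mice, and 42 of the 43 genes varied more among nephritic mice. Over all 17521 genes the median SD was 0.25 in young and 0.33 in nephritic mice, and 12410 genes varied more in the latter. Leaving out any single mouse, HIL5RU included, kept 42 genes called.

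**Figure D2:**
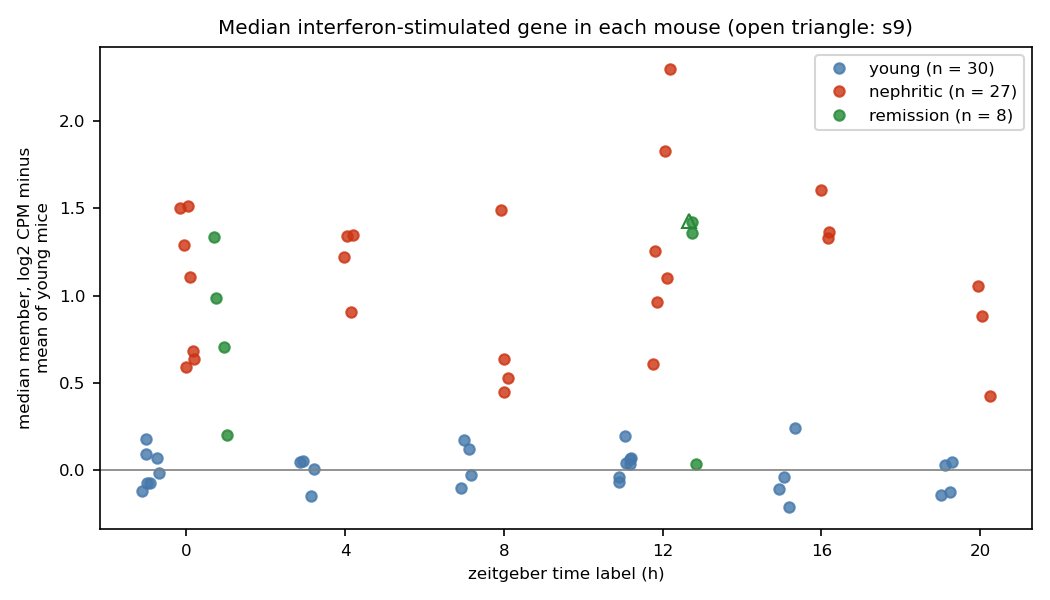
Each point is 1 mouse. The x axis is the zeitgeber time label in hours and the y axis is the median, over the 43 genes, of log2 CPM minus the mean of the young mice. The 30 young mice lie between -0.21 and 0.24, the 27 nephritic mice between 0.43 and 2.30, and the 8 remission mice between 0.04 and 1.43.

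The rest of the pathway was examined in lists of its ligands, receptors, kinases and factors, sensors, inhibitors and further targets. The counts called in these lists stand beside 28.1% of all 17521 genes higher and 33.9% lower in nephritic mice. Of 21 interferon genes with a row in the tables, 7 had 0 counts in every original library, 13 had fewer than 100 counts in all, and Ifng alone could be tested. Ifng had 47 counts over all young mice, 232 over all nephritic and 18 over all remission mice. Its log2 change in nephritic kidney was 2.09 (SE 0.32, adjusted p = 2.0e-07). Ifnb1 had 3 counts in young, 11 in nephritic and 1 in remission mice, which is too few to compare. Receptors rose modestly, 5 of 6 passing, from Ifngr2 at 0.73 to Il10rb at 0.02 (adjusted p = 0.55). Of 8 kinases and factors 5 were higher and 1, Jak1, was lower by 0.11 on the log2 scale. Jak2 had the smallest change of that list, -0.09 (adjusted p = 0.21).

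Among 11 sensors and adaptors 8 were higher and 1 was lower. The endosomal RNA sensor Tlr8 rose by 3.51 (SE 0.22, adjusted p = 1.5e-19), and the smallest change was that of the adaptor Ticam1, -0.04 (adjusted p = 0.38). Of 5 inhibitors 4 were higher, with Socs3 at 3.14 (SE 0.24, adjusted p = 1.4e-16) and Pias1 at -0.05 (adjusted p = 0.20). Of 31 further interferon-stimulated genes outside the 43, 30 were higher and 0 were lower, with a median of 0.92. Their extremes were Trim30d at 2.50 and Trim25 at 0.01 (adjusted p = 0.80).

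Markers of immune cells moved with the list, beside 28.1% of all genes higher and 33.9% lower in nephritic mice. The summed level of 7 T cell markers was 6.61 to 15 CPM in young and 11.2 to 197 CPM in nephritic mice, and 7 of 7 were higher. That of 6 B and plasma cell markers was 4.05 to 63.7 CPM against 22.2 to 2743 CPM, with 6 of 6 higher. For 7 macrophage markers it was 119 to 256 CPM against 308 to 2062 CPM, with 7 of 7 higher and no overlap. Dendritic cell markers summed to 7.17 to 15.7 CPM in young and 10.3 to 76.8 CPM in nephritic mice, and 5 of 6 were higher, while 0 of the 3 neutrophil markers tested passed. All 4 proximal tubule markers were lower, with sums of 6667 to 11908 CPM in young and 1150 to 9181 CPM in nephritic mice, and 3 of 5 endothelial markers were lower. Markers of podocytes and of the tubule segments were present in each group, and 0 markers of these lists were at 0 throughout a group. HIL5RU held the highest T cell (197 CPM), B and plasma cell (2743 CPM), macrophage (2062 CPM) and dendritic cell (76.8 CPM) sums and the lowest proximal tubule sum (1150 CPM). The part of these cells in the rise of the 43 genes was not tested.

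The rise was present at each time of day. Genes higher in nephritic than in young mice numbered 39 of 43 at ZT0, 37 at ZT4, 15 at ZT8, 39 at ZT12, 39 at ZT16 and 21 at ZT20. Of all genes tested, 20.1%, 13.9%, 2.83%, 25.8%, 10.1% and 4.56% were higher at those times, so fewer calls at ZT8 and ZT20 went with fewer calls in general. No gene of the list was called lower at any time point. The median log2 change was 1.26, 1.18, 0.76, 1.45, 1.45 and 0.90 in the same order. Called at all 6 time points were 12 genes: Isg15, Usp18, Ifit1, Mx1, Mx2, Oas1a, Oas1g, Oas2, Oas3, Oasl1, Irf7 and Zbp1. At most 2.83% of all genes, the share at ZT8, can have been called higher at all 6. Rsad2 and Ifi44 were called at 0 time points, and Cmpk2 and Gbp3 at 1.

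Whether the daily course itself differed was asked by the group by time terms. Of the 43 genes 0 passed that test, where 6.27% of 17521 genes did. An unadjusted p under 0.05 was reached by 4641 of all 17521 genes and by 5 of the 43, namely Irf8, Socs1, Samhd1, Cmpk2 and Ifih1. Irf8 had the smallest (p = 0.0072, adjusted p = 0.074 by edgeR's F test). Of the 43 genes DESeq2 called Irf8 alone (adjusted p = 0.048), where it called 2186 of all 17521 genes. Without the nephritic ZT8 mouse RX10RU 2 genes of the list passed, Irf8 and Samhd1, and without the nephritic ZT12 mouse RX10RL 1 passed, Socs1. Counts over all genes are not given for these 2 fits.

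Within young mice 10 of the 43 genes varied over the 6 time points, a share below the 39.8% of all 16521 genes tested. They were Irf8, Cmpk2, Irf7, Rsad2, Irf9, Oasl2, Ly6e, Bst2, Gbp3 and Adar. Irf8, a factor of the myeloid lineage, was highest at ZT4 with 32.3 ± 1.7 CPM (SD, n = 4) and lowest at ZT12 with 21.2 ± 1.6 CPM (SD, n = 7). The lowest ZT4 mouse, 30.4 CPM, lay above the highest ZT12 mouse, 23.8 CPM, and the test over time points gave an adjusted p of 1.1e-04 by edgeR. Cmpk2 was highest at ZT20, 19 ± 2.2 CPM (SD, n = 4), and lowest at ZT8, 13.3 ± 1.3 CPM (SD, n = 4), with ranges of 16.4 to 21.8 and 12.3 to 15.1 CPM that did not overlap (edgeR adjusted p = 4.9e-04). Rsad2, its neighbour, had the same times of peak and trough, 26.5 ± 5.0 and 15 ± 2.5 CPM (edgeR adjusted p = 0.0069). Irf7 was highest at ZT12, 17.8 ± 3.5 CPM (SD, n = 7), and lowest at ZT20, 12.4 ± 1.0 CPM (SD, n = 4), without overlap of 15.1 to 25.3 and 11.3 to 13.8 CPM (edgeR adjusted p = 0.0067). The 43 genes had no common hour in young mice: 15 had their highest set-adjusted mean at ZT12, 9 at ZT8, 6 at ZT20, 5 at ZT0, 5 at ZT4 and 3 at ZT16. Peak times over all genes were not counted. DESeq2 called 15 genes, adding Ifit1, Oas2, Iigp1, Xaf1 and Socs1, where it called 7608 of all 16521 genes. Without the 6 young mice of set 1, 4 genes passed, Oasl2, Irf8, Rsad2 and Cmpk2, where 5733 of all 16267 genes did.

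Within nephritic mice 0 of the 43 genes passed the same test, where 21.6% of 16872 genes did. An unadjusted p under 0.05 was reached by 6387 of all 16872 genes and by 4 of the 43. Ifi27, an interferon-induced mitochondrial protein, had the smallest (p = 0.013, adjusted p = 0.057 by edgeR). Its mean was highest at ZT16, 197 ± 12 CPM (SD, n = 3), and lowest at ZT4 and ZT8, 119 ± 17 and 120 ± 39 CPM (SD, n = 4 each). Samhd1 ran from 47.1 ± 14 CPM at ZT8 (SD, n = 4) to 75.8 ± 31 CPM at ZT12 (SD, n = 6), and Zbp1 from 5.14 ± 1.4 CPM at ZT20 (SD, n = 3) to 11.6 ± 8.8 CPM at ZT12 (SD, n = 6). HIL5RU set the top of the ZT12 group for both, with 138 CPM of Samhd1 and 29.3 CPM of Zbp1. The adjusted p was 0.060 for Samhd1 and 0.072 for Zbp1 by edgeR. In nephritic mice 32 of the 43 genes had their highest set-adjusted mean at ZT16, from 3 mice, and 26 their lowest at ZT8. The genes were measured in the same mice, and peak times over all genes were not counted. The ZT16 count is therefore not read as a trait of the list. Sequencing set 1 held nephritic mice of ZT0 and ZT12 only, so the set term rests on those time points. In unadjusted mean CPM, Zbp1, Isg15, Oas2 and Oas3 were highest at ZT12, although their set-adjusted means were highest at ZT16. Ifit1, Irf7 and Ifi27 were highest at ZT16 by both. The part of the set term in the ZT16 count was not tested. DESeq2 called 3 genes over time in nephritic mice, Zbp1, Samhd1 and Ifi27, where it called 5646 of all 16872 genes. Sequencing set 2 alone called Ifi27, where 4486 of all 16651 genes passed.

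**Figure D3:**
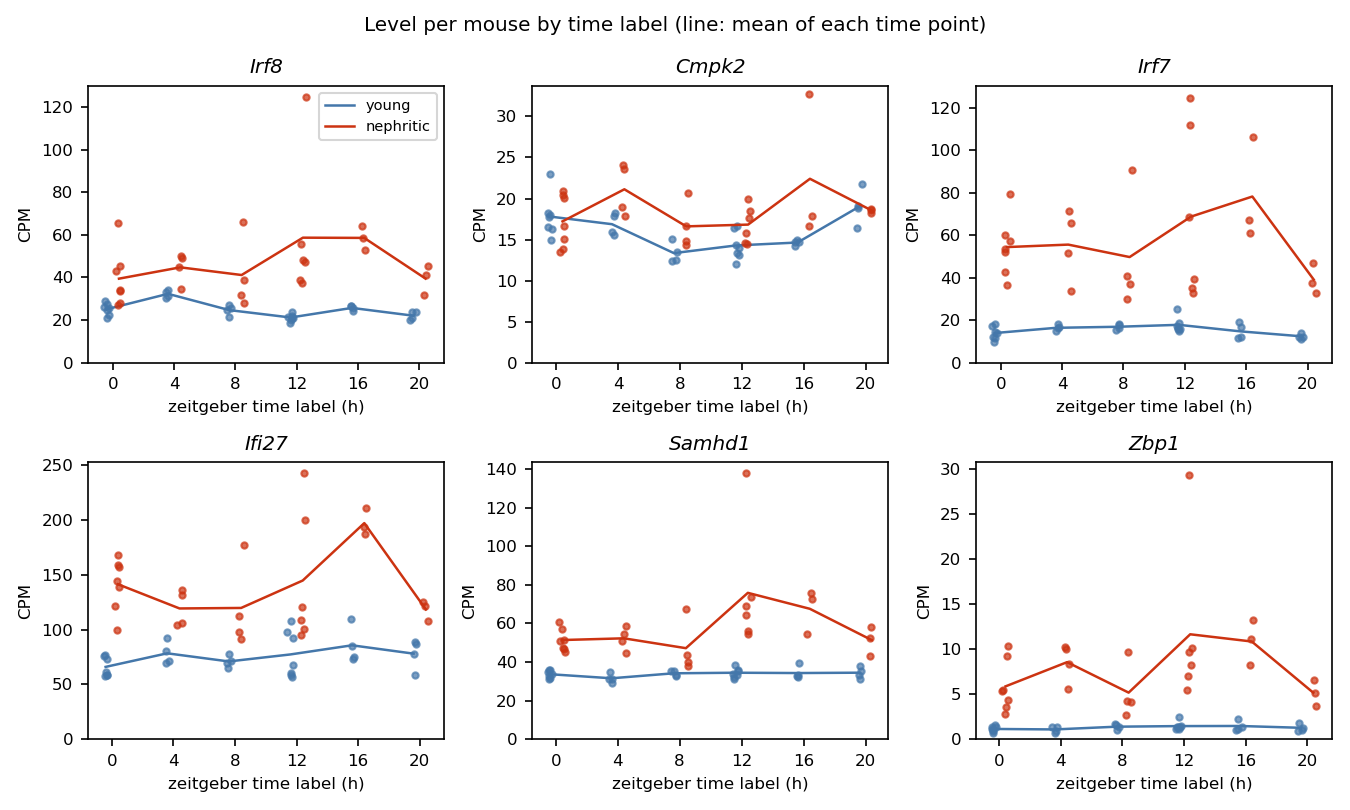
Each point is 1 mouse, with its CPM against the zeitgeber time label in hours, for the 3 genes with the smallest p over time points in young mice (Irf8, Cmpk2, Irf7) and in nephritic mice (Ifi27, Samhd1, Zbp1). Lines join the means of each time point. Irf8 in young mice is highest at ZT4, and mouse HIL5RU is the highest nephritic point of Irf8, Samhd1 and Zbp1 at ZT12.

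Remission kidney was compared at ZT0 and ZT12 with 14 young and 13 nephritic mice in a fit of the 3 diagnoses. The young and nephritic libraries serve in several of these comparisons, so their results are not separate evidence. At these times 39 of the 43 genes were higher in nephritic than in young mice, where 29% of all 16841 genes were. In remission 40 of the 43 were higher than in young mice and 0 were lower, where 21.2% of all genes were higher and 20.4% lower. The median log2 change against young mice was 1.08, from 0.16 for Stat2 to 3.17 for Oas3. For 3 of the 43 genes, Oas1a, Bst2 and Parp14, each of the 8 remission mice lay above each young mouse, a pattern that 3.53% of all genes showed.

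Oas3 had 0.598, 3.08 and 6.56 CPM (lowest, median and highest) in remission, against 0.0855, 0.356 and 0.724 CPM in young mice of ZT0 and ZT12. The log2 change was 3.17 (SE 0.38, adjusted p = 8.0e-08), and 6 of 8 remission mice were above the young range. This was the largest change of the 43 genes. Zbp1 had 1.99, 7.96 and 14.4 against 0.635, 1.30 and 2.42 CPM, a change of 2.69 (SE 0.32, adjusted p = 5.4e-08). Isg15 had 3.49, 15.6 and 23.8 against 2.11, 3.24 and 4.46 CPM, with a change of 2.23 (SE 0.27, adjusted p = 8.4e-08), close to that of Isg20, and Usp18 changed by 1.12.

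By role, the other changes against young mice were as follows on the log2 scale. Ifit1, Ifit3 and Ifit2 changed by 1.48, 1.07 and 0.57, and Mx1 and Mx2 by 1.81 and 0.62. Oas1a, Oas1g, Oasl2, Oasl1 and Oas2 changed by 2.15, 1.87, 1.64, 1.56 and 1.26. Irf7, Irf1, Irf8 and Irf9 changed by 2.17, 1.08, 0.87 and 0.78. These genes each passed the test. So did Dhx58, Eif2ak2, Ifih1 and Adar (1.22, 0.44, 0.38 and 0.36), Isg20, Samhd1 and Rsad2 (2.23, 0.85 and 0.61), and Gbp2, Igtp, Iigp1, Irgm1 and Gbp3 (1.30, 1.12, 0.99, 0.71 and 0.55). The call of Gbp3 was lost without s9 (0.49, adjusted p = 0.060) and also without s8 (0.50, adjusted p = 0.058), and that of Mx2 was lost without s8. Bst2, Rtp4, Ly6e, Parp14, Trim30a, Xaf1, Ifi35, Ifi44 and Ifi27 changed by 1.79, 1.5, 1.33, 1.17, 1.02, 0.92, 0.71, 0.70 and 0.59, and Socs1 by 1.94. Not called were Ddx58 (0.24, SE 0.13, adjusted p = 0.13), Cmpk2 (0.23, SE 0.13, adjusted p = 0.15) and Stat2 (0.16, SE 0.15, adjusted p = 0.41). Cmpk2 passed without s10 (0.30, adjusted p = 0.049).

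**Figure D4:**
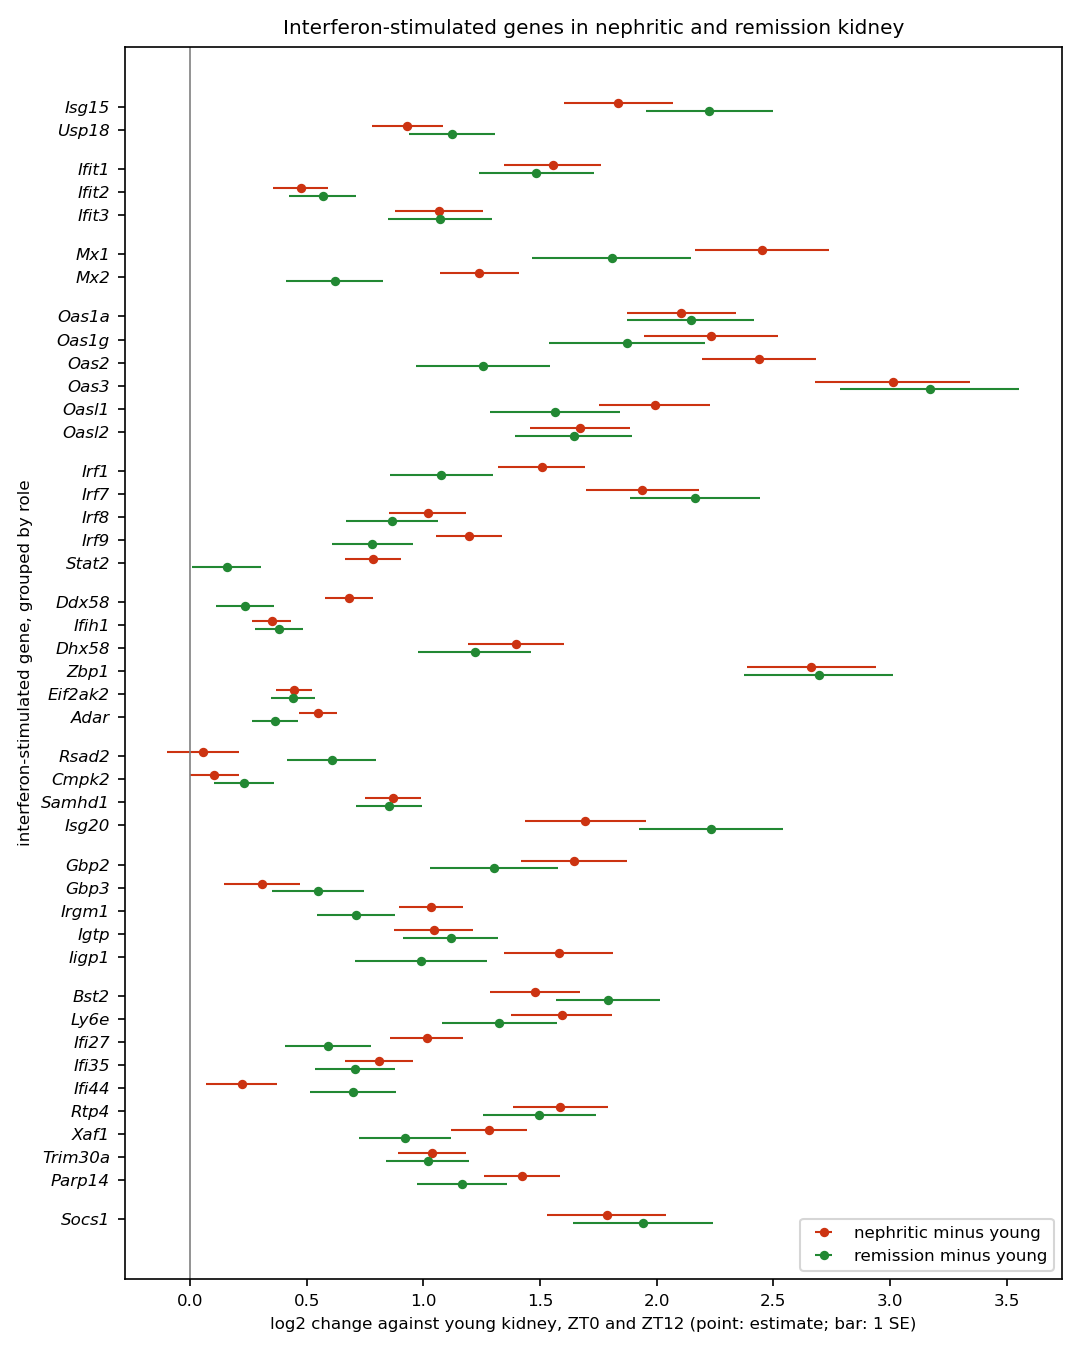
Log2 change against young kidney at ZT0 and ZT12 for each of the 43 genes, grouped by role, in 13 nephritic and 8 remission mice, with points for the estimate and bars for 1 SE. Most pairs of bars overlap. Of the genes called between nephritic and remission mice, Oas2, Stat2, Mx2 and Ddx58 lie lower in remission, while Rsad2 and Ifi44 lie higher. Bars also lie apart, with remission lower, for some genes that were not called, such as Iigp1, Irf9 and Ifi27.

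Against nephritic mice 37 of the 43 genes did not pass, 4 were lower and 2 were higher in remission, where 20.5% of all genes were lower and 17% higher. The median log2 change was -0.07. Oas2 fell most. It had 1.26, 7.04 and 11 CPM in remission and 6.67, 14.4 and 38.3 CPM in nephritic mice of the same times, and all 8 remission mice were below the nephritic median. The log2 change was -1.18 (SE 0.30, adjusted p = 0.0026), and -1.27 (adjusted p = 0.0024) without s9. Stat2 had 17.2, 31.5 and 41.2 against 31.3, 46.5 and 77.7 CPM, with all 8 remission mice below the nephritic median and 4 of them below the lowest nephritic mouse. Its change was -0.63 (SE 0.15, adjusted p = 0.0014).

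Mx2 had 1.35, 3.39 and 4.81 CPM in remission against 3.24, 4.34 and 7.13 CPM, a log2 change of -0.62 (SE 0.21, adjusted p = 0.021) that lost its call without s1. Ddx58 had 24.7, 34.3 and 43.9 against 34.7, 46.6 and 70.3 CPM, a change of -0.45 (SE 0.13, adjusted p = 0.0066). Mx1 had 0.354, 3.24 and 6.44 against 2.56, 4.07 and 13.1 CPM, the second largest fitted change of the list, -0.64 (SE 0.34), which did not pass (adjusted p = 0.14) and did pass without s8 (-0.91, adjusted p = 0.041). Without s8 7 genes were lower, with Mx1, Irf9 and Ifi27 added to the 4, and without s9 5 were, with Irf9 added.

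Rsad2 and Ifi44, which with Cmpk2 had the 3 smallest changes in nephritis, were the 2 genes that were higher in remission. Rsad2 had 13.4, 33.1 and 41.5 CPM in remission and 11.6, 22 and 30.7 CPM in nephritic mice, and 5 of 8 remission mice were above the highest nephritic mouse. Its log2 change was 0.55 (SE 0.19, adjusted p = 0.020), but 0.46 (adjusted p = 0.063) without s9. Ifi44 had 9.30, 17.5 and 24.6 against 6.50, 13.1 and 24.1 CPM, a change of 0.48 (SE 0.19, adjusted p = 0.044) and of 0.39 (adjusted p = 0.12) without s9. The call of Ifi44 was also lost on leaving out s3, s4, s8 or s14, so neither call held in the 7 mice without s9.

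The remission mice differed widely among themselves. Against the mean of young mice at ZT0 and ZT12, the median over the 43 genes was 0.15 in s1, 0.96 in s3, 0.73 in s4 and 1.38 in s8, all of ZT0, and -0.03 in s10, 1.29 in s12, 1.43 in s14 and 1.5 in s9, all labelled ZT12. In s10 23 of the 43 genes were below the young mean and in s1 15 were, whereas in s3, s8 and s9 all 43 were above it. The lowest remission value came from s10 for 26 genes and from s1 for 16. The median SD of log2 CPM among the 8 mice was 0.62 over the 43 genes, against 0.23 over all genes. Mx1 was the most variable, from 0.354 CPM in s10 to 6.44 CPM in s8.

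T cell, B and plasma cell, macrophage and dendritic cell sums were also lowest in s1 and s10. The T cell sum was 11.9 and 13.1 CPM in s1 and s10, within the young range, and 28.3 to 97.4 CPM in the other 6 mice. The macrophage sum was 323 and 331 CPM in these mice, above the highest young mouse, and 555 to 1180 CPM in the others. Against young mice 7 of 7 T cell, 6 of 6 B and plasma cell and 7 of 7 macrophage markers were higher in remission, and against nephritic mice 0, 0 and 1 of them were. Of all 16841 genes, 21.2% were higher and 20.4% lower than in young mice, and 17% were higher than in nephritic mice. Also against young mice, 3 of 6 dendritic cell and 3 of 5 endothelial markers were higher and 3 of 4 proximal tubule markers were lower, with a median of -0.90 for the last. Endothelial markers were higher in remission than in nephritic mice in 5 of 5, with sums of 322 to 431 CPM against 115 to 322 CPM over all 27 nephritic mice. The part of cell composition in the differences of the 43 genes was not tested.

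**Figure D5:**
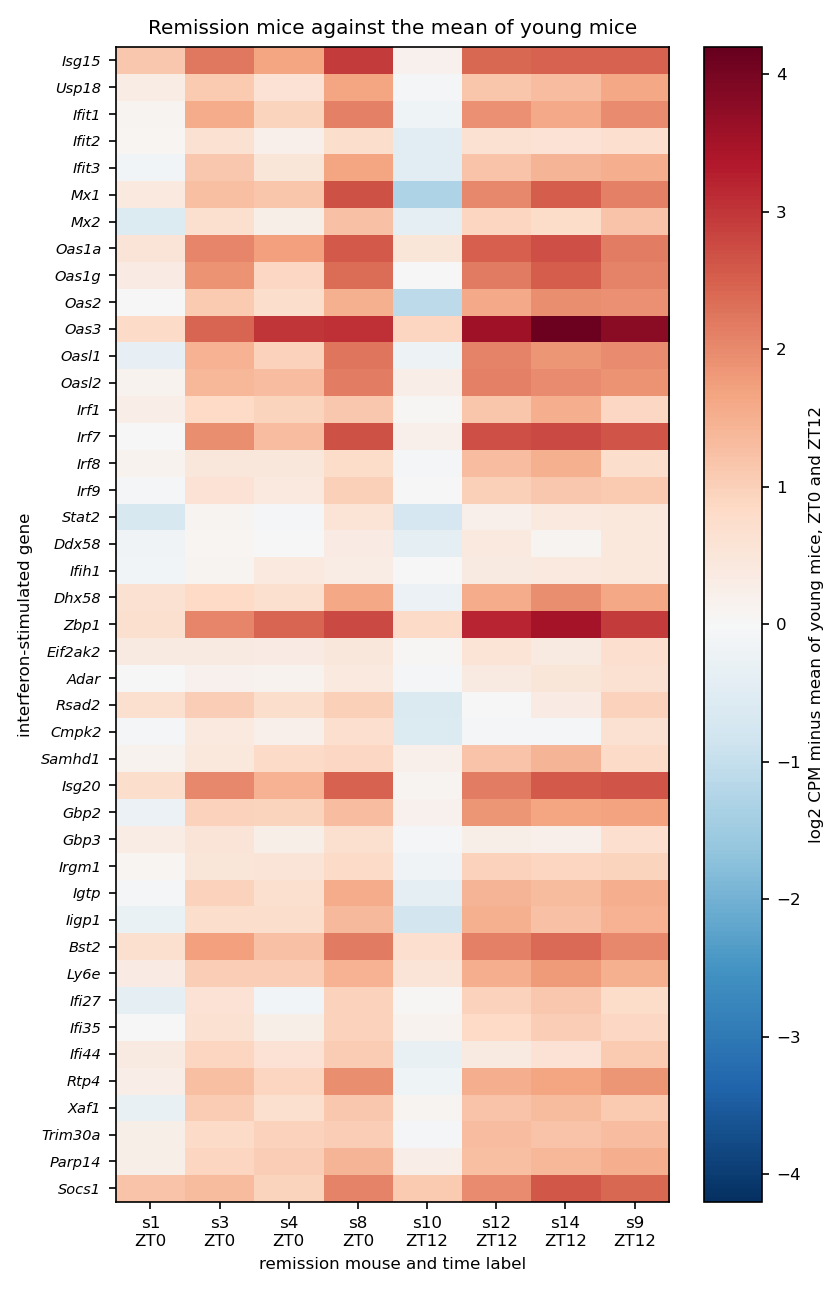
Colour gives log2 CPM minus the mean of young mice at ZT0 and ZT12, for the 43 genes (rows) in the 8 remission mice (columns, with their time labels). Mice s1 and s10 are pale, with medians of 0.15 and -0.03, and the other 6 mice have medians of 0.73 to 1.5.

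Of the pathway lists, the 31 further targets had 27 higher in remission than in young mice and 0 lower, where 21.2% of all genes were higher and 20.4% lower. Against nephritic mice 4 of the 31 were lower, Cxcl10, Oas1b, Herc6 and Ifi204, and 0 were higher. These shares were below those of all genes, 20.5% lower and 17% higher. The largest fall was that of the chemokine Cxcl10, -1.09 (SE 0.29, adjusted p = 0.0042). Of the 6 receptors 4 were lower than in nephritic mice, beside the same 20.5% of all genes, and Ifnlr1 fell most (-0.68, adjusted p = 0.0075). Socs3 fell by 1.27 against nephritic mice (SE 0.43, adjusted p = 0.020) and was 2.35 above young mice. Ifng did not pass either way, with -0.87 (adjusted p = 0.27) against nephritic and 0.85 (adjusted p = 0.32) against young mice.

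The labels name no sequencing run. The remission libraries and the 4 repeats, which are listed together, were taken as 1 run apart from the others. Run and remission thus cannot be told apart in the counts above. This inferred run held 2 repeat libraries of young and 2 of nephritic mice. Their depth differed, with 29234354 to 44175692 counts in the young and 14991137 to 15803112 in the nephritic repeats. Against these 2 young repeats all 43 genes had a positive log2 change in remission, with a median of 1.11, but 0 were called. Of all 15184 genes 170 were called higher and 341 lower. Where repeats bridged the runs, both libraries of a repeated mouse entered the fit as if separate, with no term for the mouse. The p-values of the bridged fits therefore do not measure the spread between mice alone. With the 4 repeats as a bridge between runs, 27 genes were higher than in young mice (median 1.04), where 1166 of all 16941 genes were. Without the RX11RU repeat 19 were (median 0.93), where 796 of 16919 genes were. Against nephritic mice the bridged fit had 4 genes lower, Oas2, Stat2, Ddx58 and Irgm1, and 0 higher, where 2413 of 16941 genes were lower. Without the RX11RU repeat 6 were lower, with Irf9 and Adar added, where 2241 of 16919 genes were. Within the run Ddx58 alone was lower (-0.66, SE 0.20, adjusted p = 0.032), where 1969 of 15184 genes were, and the median of the 43 genes was -0.20, or -0.49 without the RX11RU repeat.

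Between ZT0 and ZT12 within remission, 0 of the 43 genes passed, and 0% of 14451 genes did by edgeR, with 1449 genes and 0 of the 43 at an unadjusted p under 0.05. Rsad2 came nearest (p = 0.075, adjusted p = 0.51 by edgeR). It had 32.5, 41.5, 33.8 and 40.8 CPM in the ZT0 mice s1, s3, s4 and s8, and 13.4, 20.3 and 25.9 CPM in the ZT12 mice s10, s12 and s14. The mouse s9, labelled ZT12, had 40.1 CPM, within the ZT0 values. Without s9, 202 genes passed in all, 0 of the 43 among them, and the adjusted p of Rsad2 was 0.091.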

How the data were processed

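Kidney RNA of NZB/W mice was isolated with TRIzol and sequenced as reads of 150 bases on a HiSeq instrument. The paper calls the sequencing both paired-end and single-ended. The authors aligned reads to the mouse genome with a Burrows-Wheeler algorithm per the paper, while the submitters' processing notes name HISAT and mm10, and they deposited, for each gene symbol, a whole-number count of reads that aligned uniquely with at most 2 mismatches. The deposited counts carry no normalization. Each library lists 24538 symbols, 15 of which have empty cells in every library and were left out.

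Groups and times came from the labels, which name no sequencing set or run. Sequencing set 1 (6 young and 5 nephritic mice of ZT0 and ZT12) was inferred from titles that start with CR, CRS or HIL. Their numbers match the study's list of samples. The remission and repeat libraries were likewise taken as a run of their own. The tools were edgeR 4.0.16, DESeq2 1.42.0 and limma 3.58.1, run in R 4.3.3. A fit kept the genes whose counts summed to 100 or more over its libraries, TMM factors were used, and edgeR's quasi-likelihood F test was applied with set as a covariate and, where it was not itself tested, time point, at a Benjamini-Hochberg adjusted p of 0.05 over all genes tested. The SE was the log2 change divided by the square root of F. Log2 CPM used a prior count of 2 and a 24 h cosine served as an alternative. The members and lists were chosen with earlier results of these data known. Statistics in full are given in each role for the genes with the largest and smallest change in nephritis, for genes not called, for the 3 smallest p over time points in each group and for the largest differences in remission. The 40 genes called in remission against young mice are given by their changes, and genes higher in remission than in nephritis are those called higher. Gene positions came from GENCODE M21 on GRCm38 and promoter windows, which were found for 32 of the 43 genes, from RefSeq. The scripts were tested on simulated counts. Alternatives were RLE size factors, DESeq2, limma with precision weights, no filter, set 2 alone, no set covariate, a cosine, repeat libraries, the remission run alone or bridged, and leaving out mice. The result of 1 gene of the pathway lists is not reported here.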

Additional observations from a re-analysis of the deposited data

Results flagged for a closer look

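Single mice that stand apart by Dixon's ratio were looked for in 103 groups of 4 to 8 mice, and 7 groups had one. Chance gives about 1 in 20 where groups are separate. These groups were not, since those of different genes held the same mice, and not all of the 43 genes were taken at each time point. HIL5RU was the highest of the 6 nephritic mice of ZT12 for 3 genes, with 125 CPM of Irf8 (next mouse 55.7 CPM), 29.3 CPM of Zbp1 (next 10.1 CPM) and 138 CPM of Samhd1 (next 73.4 CPM). The young mouse ZT12LU was the highest of 7 for Irf7 at 25.3 CPM (next 18.9 CPM) and for Zbp1 at 2.42 CPM (next 1.48 CPM). CR6RL was the highest of the 7 young mice of ZT0 for Cmpk2, 23 CPM against 18.2 CPM in the next, and ZT16RU the highest of the 4 young mice of ZT16 for Samhd1, 39.2 CPM against 33.0 CPM. In remission, none of the 43 genes had a mouse that stood apart by this ratio.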

How the results depend on the processing

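The count of genes higher in nephritic than in young mice was 42 in each fit except Set 2 alone (43), and leaving out each of 57 mice gave 42 to 42. Of 301 values of single genes in that comparison under other settings 300 kept their side of the threshold and 1, Rsad2 in Set 2 alone, newly passed it. Genes higher in remission than young mice, 40, were 38 to 41 on leaving out a mouse, 19 with a run covariate without the RX11RU repeat, and 0 within the run, with or without that repeat. Genes lower in remission than nephritic mice, 4, were 3 to 7 on leaving out a mouse, 1 within the run and 2 there without the RX11RU repeat, and 4 bridged and 6 bridged without it. The 2 genes higher there were 0 to 2 on leaving out a mouse, 1 with no filter, and 0 without s9, within the run and in both bridged fits. Genes differing in time course, 0, were 1 with DESeq2 and 0 to 2 on leaving out a mouse. Genes varying over time were 4 with Set 2 alone and 15 with DESeq2 against 10 in young mice, and 3 with DESeq2 and 1 with Set 2 alone against 0 in nephritic mice. In young mice the count over all genes, 6583, was 7608 with DESeq2 and 5733 with Set 2 alone. Over all genes, the nephritic count over time, 3646, was 5646 with DESeq2, 1994 with no set covariate and 362 with the cosine, and the different time courses, 1099, were 2186 with DESeq2 and 1715 with Set 2 alone. Genes called against nephritic mice, 6319, were 4001 and 3606 bridged and 3582 and 3426 within the run, without the RX11RU repeat second, and those against young mice, 7002, were 2342, 1693, 511 and 674 in that order. The cause of these changes was not tested. Of the 301 nephritic values against young mice, the 344 of remission against young mice and the 56 of called genes and Mx1 against nephritic mice, 0 changed sign. Genes not called against nephritic mice did, such as Oas1a, from 0.04 to -0.22 within the run. No pairing of mice across groups was possible because the labels number no mice across groups. Repeat libraries could be paired with their originals, and the bridged fits did not use that pairing. Comparisons with remission rest on 8 mice of lower depth, and within the run on 2 repeats a group.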
